A study of Mus musculus with 2 samples.

Results

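The 34 genes described here cover the synthesis, uptake, movement, storage and export of cholesterol, and were taken by fixed symbol from the 55536 Ensembl genes of the deposited gene tables. All 34 symbols were found. They comprised 17 enzymes of sterol synthesis, 5 parts of the SREBP machinery that senses sterols, 4 proteins of sterol transport and storage, the 25-hydroxycholesterol enzyme Ch25h, 2 LXR receptors and 5 LXR target genes. RNA came from bone marrow-derived macrophages of the C57BL/6J mouse strain, which are primary phagocytes grown from marrow. Every culture was held for 12 h in 100 ng/ml Lipid A, which is the portion of lipopolysaccharide that engages the receptor TLR4, then for 12 h without it, and was given 100 ng/ml again for 20 min. Total RNA depleted of ribosomal RNA was sequenced from a fraction labelled both nucleoplasmic and nuclear, in 2 libraries of this 1 group that are labelled biological replicates and share a donor label.

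No naive or unstimulated library was available here, so no response to Lipid A was measured. The comparisons were between gene groups within these cells and between the 2 libraries, and there was no test between groups of samples. Separate animals are not named in the labels, so the spread between the libraries may be technical. Replicate 1 was made from 1 µg and replicate 2 from 500 ng of RNA, and input and replicate cannot be told apart. The gene tables summed to 21954179 expected counts for replicate 1, against 17739520 for replicate 2, so that a count of 0 allows up to 0.137 and 0.169 CPM (counts scaled to a common library total). The 13 mRNAs of the mitochondrial genome, which are made outside the nucleus, took 3.45% of the counts in replicate 1 and 6.32% in replicate 2. Their part in the differences between the libraries was not tested. All 8 macrophage markers of a fixed list reached 1 TPM (a level per transcript length that has the same sum in every library), with a summed level of 2452 TPM in replicate 1, against 2851 TPM in replicate 2. The 5 neutrophil markers summed to 1.78 and 2.53 TPM, with Ly6g and Elane at 0. Cd3e, Ncr1 and Adipoq were also at 0 in both libraries. The summed levels were 0.58 and 1.06 TPM for 3 dendritic cell markers, 0.05 and 0.38 TPM for 4 lymphoid markers, and 0.14 and 0.31 TPM for 4 stromal or adipocyte markers.

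As background, cells make cholesterol from acetyl-CoA through the mevalonate pathway, and the transcription factor SREBP-2 drives the genes of that pathway when sterols in the endoplasmic reticulum run low. When sterols are plentiful, INSIG proteins hold SREBP and its escort SCAP in the endoplasmic reticulum, while oxysterols and the synthesis intermediate desmosterol activate the nuclear receptors LXRα and LXRβ, which drive export through ABCA1 and ABCG1. Macrophages take up lipoprotein cholesterol in bulk, free it in lysosomes and then esterify or export it. Ch25h, an interferon-responsive gene in macrophages, makes an oxysterol that both blocks SREBP processing and activates LXR.

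Binding motifs of both regulators were searched in the promoters of the RefSeq table on GRCm38.p6, which run from 250 bases before to 50 bases after a start. The table held 38 promoters for 27 of the 34 genes, and 7 genes had none. Those not searched were Fdps, Fdft1, Sqle, Stard4, Npc1, Abcg1 and Lpl. Each motif was searched on both strands, and the motifs were allowed to overlap. The sequences shown are those that hold a match to the SREBP element (TCACNCCAC) or the LXR element (a direct repeat spaced by 4 bases, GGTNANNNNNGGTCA), together with the Srebf1 promoter of its highest coding transcript for contrast. Matches are in capitals, and positions are counted from the start as base 1. The Hmgcs1 promoter (chr13:119690101-119690400, plus strand) held the SREBP element with its first base at -137, the Abca1 promoter (chr4:53159846-53160145, minus strand) the LXR element at -67, and the downstream Srebf1 promoter (chr11:60210422-60210721, minus strand) the LXR element at -182. The upstream Srebf1 promoter (chr11:60220578-60220877, minus strand) held neither.
Hmgcs1: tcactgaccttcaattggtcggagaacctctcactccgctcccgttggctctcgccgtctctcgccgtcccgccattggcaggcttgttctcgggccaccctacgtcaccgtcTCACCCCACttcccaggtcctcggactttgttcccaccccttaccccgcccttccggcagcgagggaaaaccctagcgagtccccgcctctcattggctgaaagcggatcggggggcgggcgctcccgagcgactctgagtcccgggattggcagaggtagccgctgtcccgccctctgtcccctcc
Abca1: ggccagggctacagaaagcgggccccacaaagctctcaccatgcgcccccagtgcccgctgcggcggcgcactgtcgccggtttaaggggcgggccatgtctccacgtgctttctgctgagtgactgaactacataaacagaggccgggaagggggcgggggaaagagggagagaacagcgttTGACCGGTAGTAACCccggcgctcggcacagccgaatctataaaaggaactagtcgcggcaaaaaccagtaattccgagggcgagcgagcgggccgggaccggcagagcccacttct
Srebf1 downstream: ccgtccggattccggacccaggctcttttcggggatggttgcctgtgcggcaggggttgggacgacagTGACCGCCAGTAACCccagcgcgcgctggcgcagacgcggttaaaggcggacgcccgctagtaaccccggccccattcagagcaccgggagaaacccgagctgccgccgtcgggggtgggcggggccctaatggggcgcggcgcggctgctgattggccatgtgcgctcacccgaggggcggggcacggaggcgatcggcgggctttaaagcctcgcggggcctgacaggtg
Srebf1 upstream: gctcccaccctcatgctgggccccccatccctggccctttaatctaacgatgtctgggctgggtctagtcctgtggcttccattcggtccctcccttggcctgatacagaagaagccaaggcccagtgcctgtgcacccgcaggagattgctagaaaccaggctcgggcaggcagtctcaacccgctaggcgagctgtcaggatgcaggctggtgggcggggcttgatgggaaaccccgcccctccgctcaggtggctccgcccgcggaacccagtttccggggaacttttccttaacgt

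The SREBP element was in 1 of the 38 member promoters, that of Hmgcs1, and in 1.24% of all 32851 promoters. The LXR element was in 2 of the 38, those of Abca1 and Srebf1, and in 0.207% of all promoters. The CCAAT box bound by NF-Y, a partner of SREBP (CCAAT), was in a promoter of 13 of the 14 synthesis genes that had one, against 41.1% of all genes in the table. Among those 13 were Hmgcs1, Idi1, Lss, Cyp51, Msmo1 and Dhcr7. The box was not particular to synthesis, as 20 of the 27 members with a promoter had it. These included 4 of 5 SREBP machinery genes and 2 of 2 transport and storage genes, but only 1 of 3 LXR targets and 0 of 2 LXR receptors. The E-box (CACGTG) was in 7 of the 38 member promoters, which belong to Abca1, Dhcr7, Hsd17b7, Insig1, Sc5d and Scap, and in 7.15% of all promoters. The interferon response element (GAAANNGAAA), in 3.44% of all promoters, was in 1 of the 38, that of Ebp, and not in the Ch25h window. A match is a description of these letters and not evidence of binding.

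Of the 34 genes, 33 had a mean level of 1 TPM or more, against 45.6% of the 22028 protein-coding genes. Ch25h was the gene below that level, and it passed it when TPM was rescaled over nuclear protein-coding genes. The genes spanned 0.51 to 461 TPM (Ch25h and Apoe), with a median of 7.49 TPM, beside 6.94 TPM for all 12952 genes at 1 TPM or more and 8.91 TPM for the 10050 protein-coding genes among them. The median hides a wide split by role. The enzymes of synthesis had a median of 5.86 TPM, the SREBP machinery 22.2 TPM, transport and storage 119 TPM and the LXR targets 109 TPM. In bulk nuclear RNA a lower level cannot be told apart from fewer cells that express the gene.

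**Figure D1:**
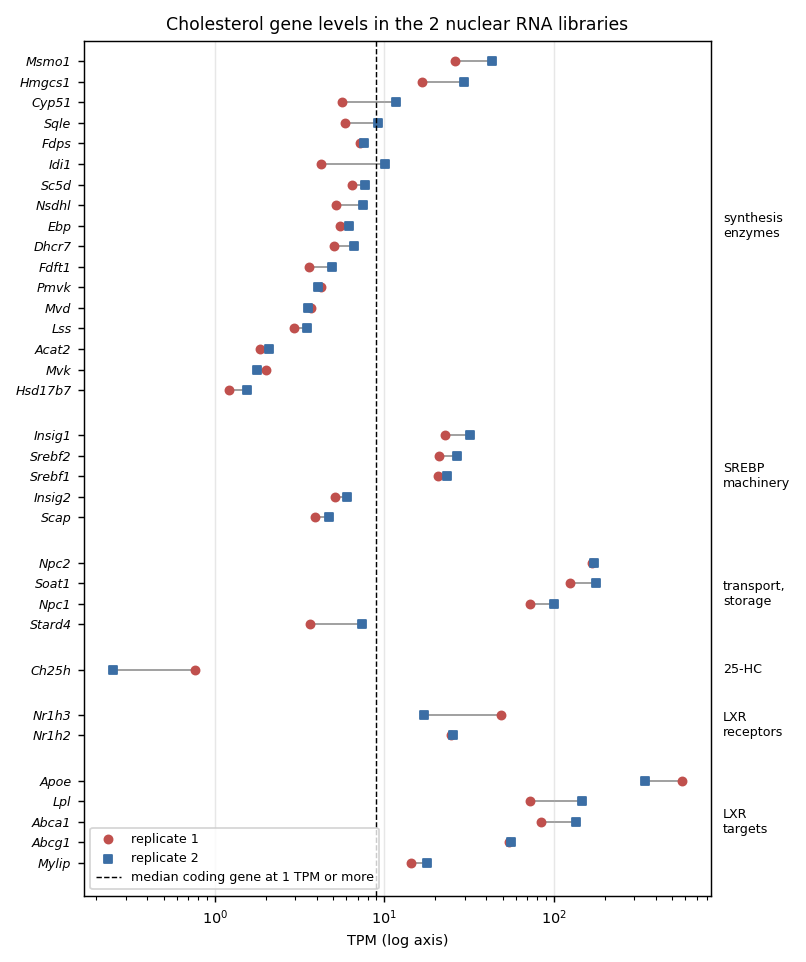
Level of each of the 34 genes in replicate 1 (circles) and replicate 2 (squares), in TPM on a log axis, grouped by role, with the median protein-coding gene (8.91 TPM) as a dashed line. Most synthesis enzymes lie left of the line, while Npc1, Npc2, Soat1 and all 5 LXR targets lie right of it, and Ch25h is the lowest gene in both libraries.

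The synthesis pathway was expressed throughout but at low nuclear levels, with 15 of its 17 enzymes below the median protein-coding gene by mean level. The exceptions were Msmo1 and Hmgcs1. In replicate 2 alone, where that median was 9.68 TPM, Cyp51 and Idi1 were above it too, with 11.7 and 10.1 TPM. Hmgcs1 (ENSMUSG00000093930.2, chromosome 13, 119690379 to 119708260, plus strand), which makes the HMG-CoA used for mevalonate, had 16.6 TPM in replicate 1, against 29.6 TPM in replicate 2. Msmo1 (ENSMUSG00000031604.10, chromosome 8, 64718139 to 64733792, minus strand), which oxidises the methyl groups of methylsterols, had 26.1 TPM in replicate 1, against 43.4 TPM in replicate 2. Replicate 2 was the higher library for both. Their means were 34.7 ± 12.2 TPM for Msmo1 and 23.1 ± 9.14 TPM for Hmgcs1 (SD, n = 2), at percentiles 86.0 and 77.9 of the protein-coding genes at 1 TPM or more.

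The early steps of the pathway, from acetyl-CoA to farnesyl diphosphate, were otherwise low. Acat2, the thiolase that starts the pathway, had 1.84 TPM in replicate 1, against 2.08 TPM in replicate 2. Mevalonate is then phosphorylated by Mvk, with 2.01 and 1.79 TPM, and by Pmvk, with 4.23 and 4.05 TPM. Mvd, which decarboxylates the product, had 3.71 and 3.56 TPM. Idi1, the isomerase of the isopentenyl unit, had 4.25 TPM in replicate 1, against 10.1 TPM in replicate 2, the widest ratio of the synthesis enzymes. Fdps, which joins the units into farnesyl diphosphate, had 7.23 and 7.65 TPM. The ratio of replicate 1 to replicate 2 was 1.12 for Mvk, 1.04 for Pmvk and Mvd and 0.945 for Fdps, against 0.42 for Idi1.

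The sterol-committed enzymes lay in the same low range. Fdft1, the squalene synthase, had 3.61 and 4.94 TPM, and Sqle, the squalene epoxidase that limits flux in many cells, had 5.86 and 9.21 TPM. Lss, which closes the ring to lanosterol, had 2.96 and 3.51 TPM. Cyp51, the lanosterol demethylase, had 5.67 TPM in replicate 1, against 11.7 TPM in replicate 2. Both libraries thus placed the whole-gene level of Msmo1, which acts after Cyp51, well above it. Protein-coding transcripts held only 43.5% and 34.6% of Msmo1's TPM, and the noncoding Msmo1-206 had 11.3 and 20.45 TPM. The main coding transcripts were closer, with 10.6 and 13.6 TPM for Msmo1-201 and 5.22 and 10.5 TPM for Cyp51-201. Downstream, Nsdhl had 5.18 and 7.52 TPM and Hsd17b7, which acts with Nsdhl in removing the methyl groups, had 1.21 and 1.56 TPM. Hsd17b7 was the lowest enzyme of the pathway, at percentile 4.69 of the protein-coding genes at 1 TPM or more. The last steps showed little range, with 5.49 and 6.22 TPM for the isomerase Ebp, 6.46 and 7.67 TPM for the desaturase Sc5d and 5.03 and 6.65 TPM for Dhcr7, the reductase that yields cholesterol. Together the 17 enzymes summed to 107 TPM in replicate 1, against 161 TPM in replicate 2. A higher TPM in replicate 2 was common, seen in 9338 of all 12952 genes at 1 TPM or more. All protein-coding genes together held 25.4% of TPM in replicate 1, against 33.5% in replicate 2.

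The sensors and regulators of the pathway had a higher median than its enzymes, through Srebf1, Srebf2 and Insig1, while Insig2 and Scap lay below the median enzyme. Srebf1 (chromosome 11, 60199089 to 60222581, minus strand) and Srebf2 (chromosome 15, 82147181 to 82205379, plus strand) encode the SREBP factors for fatty acid and sterol genes. Srebf1 had 20.9 TPM in replicate 1, against 23.5 TPM in replicate 2, and Srebf2 had 21.1 and 27.1 TPM, so that the ratio of Srebf2 to Srebf1 was 1.01 and 1.15. By counts Srebf1 had the opposite order, with 75.9 and 50.7 CPM, while Srebf2 had 124 and 127 CPM. Protein-coding transcripts held 62.5% of Srebf1's TPM in replicate 1, against 42.3% in replicate 2, so the TPM ratio depends on its noncoding transcripts. Insig1, a retention protein and itself an SREBP target, had 22.9 and 32.3 TPM, but 63.1 and 63.7 CPM. Insig2, the related retention protein, had 5.16 and 6.08 TPM. The ratio of Insig1 to Insig2 was 4.43 in replicate 1 and 5.31 in replicate 2. Scap, the escort of SREBP, had 3.90 and 4.70 TPM and was the lowest of these genes in both libraries.

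The RefSeq table gives 3 Srebf1 starts. As background, the coding forms SREBP-1a and SREBP-1c begin at an upstream and a downstream promoter, and SREBP-1c is the LXR-driven form in liver. Transcript Srebf1-201, which starts 23 bases from the upstream RefSeq start, had 10.5 TPM in replicate 1, against 8.59 TPM in replicate 2, on 1288 and 718 expected counts. Transcript Srebf1-207, which starts 6 bases from the start of the downstream promoter printed above with its LXR element, had 1.3 and 1.35 TPM on 115 and 82 counts. Srebf1-207 therefore held 8.20% of the counts of both transcripts in replicate 1, with a 95% Wilson interval of 6.87 to 9.75, against 10.3% in replicate 2, with one of 8.33 to 12.5. These intervals cover counting error only. A further coding transcript, Srebf1-203, starts 3283 bases from the nearest RefSeq start and was not part of this share. It had 142 counts in replicate 1, more than Srebf1-207, and 0 in replicate 2. In the other deposited transcript table the share by TPM was 26.9% and 13.3%, against 11.0% and 13.6% by TPM in the first table, so the share in replicate 1 depended on the table. Srebf1-201 was the higher of the pair in both libraries and both tables. The third start, further upstream, is that of Srebf1-204, a 367-base noncoding transcript with 0 and 4.34 TPM on 0 and 13.4 counts. In the other table Srebf1-204 had 0.509 and 7.27 TPM, against 2.41 and 4.99 TPM for Srebf1-201, so it exceeded Srebf1-201 there in replicate 2.

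**Figure D2:**
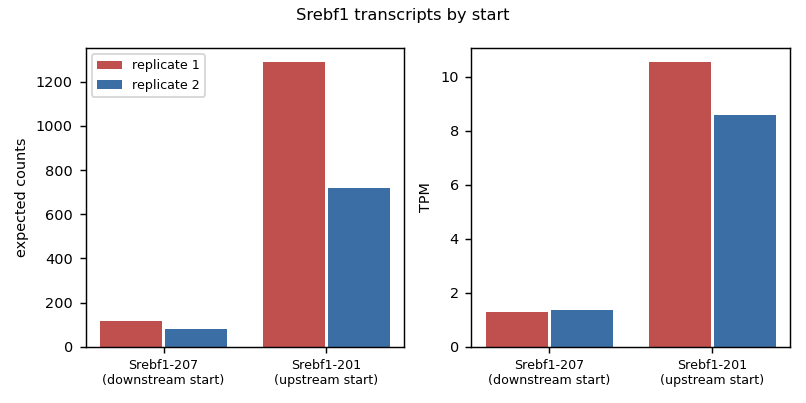
Expected counts (left) and TPM (right) of the Srebf1 transcripts from the downstream start (Srebf1-207) and the upstream start (Srebf1-201), with 1 bar per library. The upstream form had 1288 and 718 counts, and the downstream form 115 and 82, in replicates 1 and 2.

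The genes of sterol transport and storage were among the higher nuclear mRNAs of these cells, apart from Stard4. Npc2 (ENSMUSG00000021242.9, chromosome 12, 84754562 to 84773152, minus strand), the soluble lysosomal protein that binds freed cholesterol, had 169 TPM in replicate 1, against 173 TPM in replicate 2. Npc1, the lysosomal membrane protein that receives it, had 73.1 and 101 TPM. Soat1 (ENSMUSG00000026600.12, chromosome 1, 156424525 to 156474331, minus strand), which esterifies cholesterol for storage in lipid droplets, had 125 and 178 TPM. The means of these 3 genes stood at percentiles 98.4, 95.8 and 98.1 of the protein-coding genes. Stard4, a carrier of sterol through the cytosol and an SREBP-2 target, had 3.67 TPM in replicate 1, against 7.38 TPM in replicate 2, within the range of the synthesis enzymes. Soat1 exceeded Sqle by a ratio of 21.4 in replicate 1 and 19.4 in replicate 2.

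Ch25h (ENSMUSG00000050370.5, chromosome 19, 34473778 to 34475164, minus strand) was close to the limit of detection. It had 27 counts in replicate 1 (exact Poisson interval 17.8 to 39.3) and 6 in replicate 2 (2.20 to 13.1), or 0.77 and 0.25 TPM. The log2 ratio of its CPM was 1.86, replicate 1 minus replicate 2, with an exact 95% interval of 0.56 to 3.43. This interval excludes 0 but covers counting error only. In the other deposited table Ch25h had 0.18 and 0.13 TPM. Its level was 0.0463 of that of Hmgcs1 in replicate 1 and 0.00845 in replicate 2.

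Both LXR receptors were above the median protein-coding gene, and their order by TPM differed between the libraries. Nr1h2 (ENSMUSG00000060601.13, chromosome 7, 44549616 to 44553951, minus strand), which encodes the widely expressed LXRβ, had 24.98 TPM in replicate 1, against 25.64 TPM in replicate 2. Nr1h3 (ENSMUSG00000002108.10, chromosome 2, 91184061 to 91202834, minus strand), which encodes LXRα, the form rich in liver and macrophages, had 49.0 TPM in replicate 1, against 17.3 TPM in replicate 2, on 2364 and 579 counts. The ratio of Nr1h3 to Nr1h2 was 1.96 in replicate 1 and 0.675 in replicate 2. By TPM, Nr1h3 thus led in one library and Nr1h2 in the other. By counts, Nr1h3 led in replicate 1, with 108 CPM against 40.9 CPM for Nr1h2. In replicate 2 the counts were nearly equal, 579 for Nr1h3 and 578 for Nr1h2, so the order there depended on the measure.

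The LXR targets were the highest group by their summed level, with 801 TPM in replicate 1, against 703 TPM in replicate 2. Both that rank and the higher sum in replicate 1 came from Apoe alone. The other targets together lay below transport and storage, which summed to 372 and 460 TPM, and were higher in replicate 2. Apoe (ENSMUSG00000002985.16, chromosome 7, 19696109 to 19699188, minus strand), the apolipoprotein that macrophages secrete as an acceptor of cholesterol, had 574 TPM in replicate 1, against 347 TPM in replicate 2. It was the highest of the 34 genes in both libraries, and its mean of 461 ± 161 TPM (SD, n = 2) stood at percentile 99.5 of the protein-coding genes. Abca1 (ENSMUSG00000015243.4, chromosome 4, 53030787 to 53159895, minus strand), which exports cholesterol to lipid-poor apolipoprotein, had 84.2 and 135 TPM. Abcg1, which exports cholesterol to mature lipoprotein, had 54.9 and 56.3 TPM, so that the ratio of Abca1 to Abcg1 was 1.53 in replicate 1 and 2.40 in replicate 2. Lpl, the lipase that frees fatty acids from lipoprotein triglyceride, had 73.0 TPM in replicate 1, against 147 TPM in replicate 2. The targets differed in which library was higher, with Apoe higher in replicate 1 and Abca1 and Lpl in replicate 2. Mylip, also named Idol, a ubiquitin ligase that lowers lipoprotein receptors, was the lowest target, with 14.4 and 17.96 TPM.

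Set against each other, the synthesis genes lay below the LXR targets. On the scale of log2(mean TPM + 1), the median was 2.78 for the 17 synthesis genes and 6.79 for the 5 LXR targets, beside 2.99 for all genes at 1 TPM or more. The difference, synthesis minus LXR targets, was -4.01, and it was -3.62 in replicate 1 and -4.15 in replicate 2 (SD 0.38, n = 2). The LXR target median was 18.7-fold that of synthesis in TPM. The groups overlapped through few genes, as Msmo1 and Hmgcs1 were above Mylip, and Mylip was the one LXR target below the highest synthesis gene. This holds for whole genes, as the main coding transcript of Msmo1, with 10.6 and 13.6 TPM, lay below Mylip. Abca1 exceeded Hmgcs1 by a ratio of 5.06 in replicate 1 and 4.56 in replicate 2. Ch25h lay below every gene of both groups. No unstimulated library gives the level before Lipid A, so this order is not a change. As CPM, which does not divide by length, the difference was -5.01, and with Nr1h3 and Srebf1 added to the LXR list it was -3.05.

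The 2 libraries differed over 2-fold in a small part of the genes. The difference was taken as log2(TPM + 1) in replicate 1 minus replicate 2, less its median of -0.29 over all genes at 1 TPM or more, and a size above 1 was counted as over 2-fold. With 1 library on each side this is a description with no p-value. It was over 2-fold for 2 of the 33 members at 1 TPM or more, against 7.29% of all 12952 genes. Both, Nr1h3 and Apoe, were higher in replicate 1, where 4.51% of all genes were over 2-fold higher, and no member was over 2-fold higher in replicate 2, where 2.78% were. The members' share was close to that background.

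Nr1h3 stood furthest apart, with a centred difference of 1.74 on 48.97 and 17.31 TPM, whose ratio before centring was 2.83. The log2 ratio of its CPM was 1.72 (exact 95% counting interval 1.59 to 1.86). Apoe had a centred difference of 1.01, just past the threshold, while its TPM ratio before centring was 1.66. The log2 ratio of its CPM was 0.95 (0.91 to 0.99). Across the main and the alternative settings, 10 in all, Nr1h3 was over 2-fold in 10 (1.35 to 1.87) and Apoe in 4 (0.68 to 1.10). On the other side, Idi1 had -0.79, Lpl -0.71, Cyp51 -0.64, Stard4 -0.55, Hmgcs1 -0.50, Msmo1 -0.42, Abca1 -0.38 and Sqle -0.28, none past 2-fold here. With no centring Idi1 passed it, at -1.08, the only setting of the 10 in which it did. Each of these 8 genes was lower in replicate 1 in all 10 settings. Mvk, Pmvk and Mvd, with 0.40, 0.34 and 0.34, were higher in replicate 1 in all 10.

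The synthesis enzymes did not move together between the libraries. Their median difference was 0.07, with 9 genes higher in replicate 1 and 8 in replicate 2, and that of the LXR targets was -0.01, with 2 higher in replicate 1 and 3 in replicate 2. Without centring the medians were -0.22 and -0.30, and with TMM scaling of the counts -0.06 and 0.05, so neither list has a direction that holds under every scaling. The counting interval of the CPM ratio, which is not centred or divided by length, left out 0 for 9 members higher in replicate 1. It did so for 12 higher in replicate 2. The same count was not made over all genes, so these counts are not a result about the members. Of the synthesis enzymes, Hmgcs1, Idi1, Sqle, Cyp51, Msmo1, Hsd17b7 and Sc5d were among the 12, and Mvk and Ebp among the 9. The scale mattered, as Hsd17b7 and Sc5d had log2 CPM ratios of -0.41 and -0.31 but centred differences of 0.08 and 0.07. Ebp had a log2 CPM ratio of 0.51, although its TPM was 5.49 in replicate 1, against 6.22 in replicate 2.

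**Figure D3:**
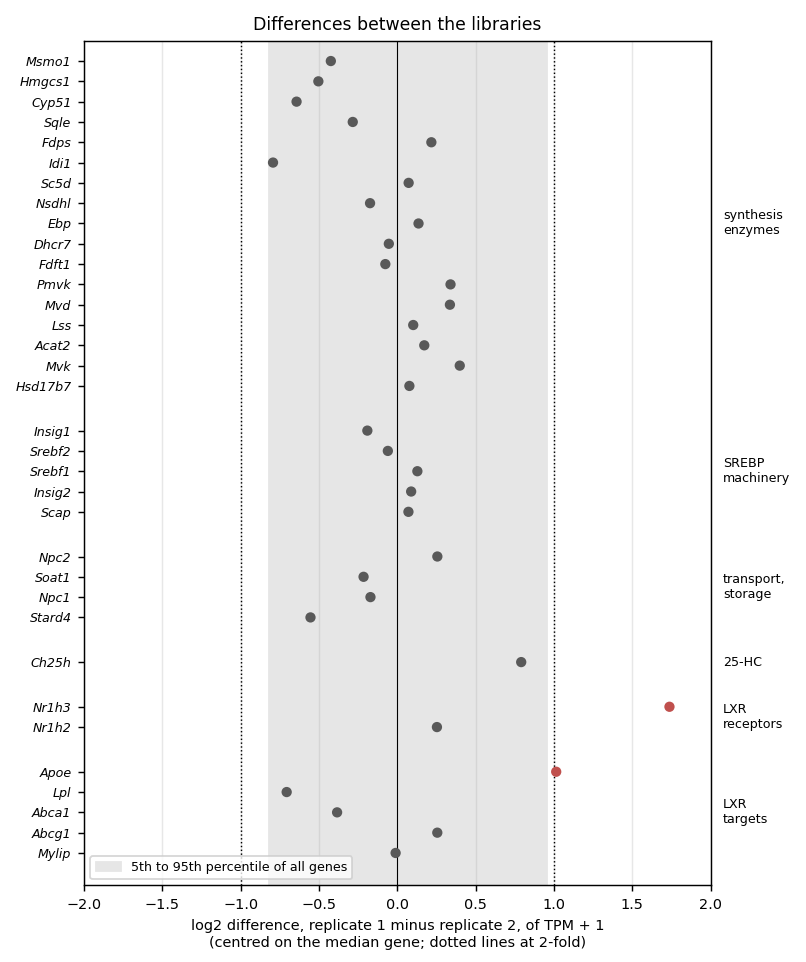
Difference of each gene between the libraries, as log2(TPM + 1) in replicate 1 minus replicate 2, centred on the median gene, with dotted lines at 2-fold and the 5th to 95th percentile of all genes shaded. Nr1h3 (1.74) and Apoe (1.01) lie beyond the right line, and Idi1 (-0.79) lies furthest to the left.

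Transcripts annotated with a retained intron are a feature of nuclear RNA that the rule for the genes did not name. The genes were chosen with earlier results of these data known. Of 205 annotated transcripts of the 34 genes, 72 reached 1 TPM in both libraries, and 23 of these are annotated with a retained intron and 44 as protein-coding. Retained-intron transcripts held a median of 15.4% of the gene's TPM over the 25 members that have such a transcript and reach 1 TPM, beside 26.2% for 6243 protein-coding genes under the same conditions. The median was 12.6% in replicate 1 and 15.3% in replicate 2. As a share of expected counts it was 5.84% for the members and 15.4% for the protein-coding genes, and in the other table it was 23.6% and 31.3% of TPM, so the level depended on the quantification while the members were lower each time. The share was above 20% for 11 of the 25 genes (44.0%), against 62.5% of the protein-coding genes.

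The share differed widely between genes of the same role. Lss had 54.4% in replicate 1 and 67.1% in replicate 2, and Ebp had 28.2% and 74.1% on 167 and 95 counts of the whole gene. Npc1 had 42.0% and 54.9%, where the retained-intron transcript Npc1-206 had 25.6 and 48.8 TPM beside 40.9 and 42.2 TPM for the full coding transcript Npc1-201. Npc2 had 39.4% and 49.0%, and Insig1 had 23.7% and 39.7%. These genes were higher in replicate 2, as were 21 of the 25, beside 3603 of the 6243 protein-coding genes. Both LXR receptors went the other way, with 30.7% and 20.6% for Nr1h2 and 46.5% and 39.7% for Nr1h3, as did Mvk and Lpl. For Nr1h2 this order was not kept in the other table, with 36.7% and 37.5%. As a share of expected counts Nr1h2 had 28.8% and 26.5%. The LXR targets were low, with 4.92% and 6.93% for Abcg1, 3.38% and 1.95% for Lpl and 0.57% and 0.74% for Apoe. Shares from short transcripts rest on few reads, and for Soat1 a 366-base coding transcript, Soat1-206, had 22.1 TPM in replicate 1, against 2.58 TPM in replicate 2. The Insig1 share came from the 757-base Insig1-202, on 88 and 141 counts. As a share of expected counts it was 6.37% and 12.5%.

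**Figure D4:**
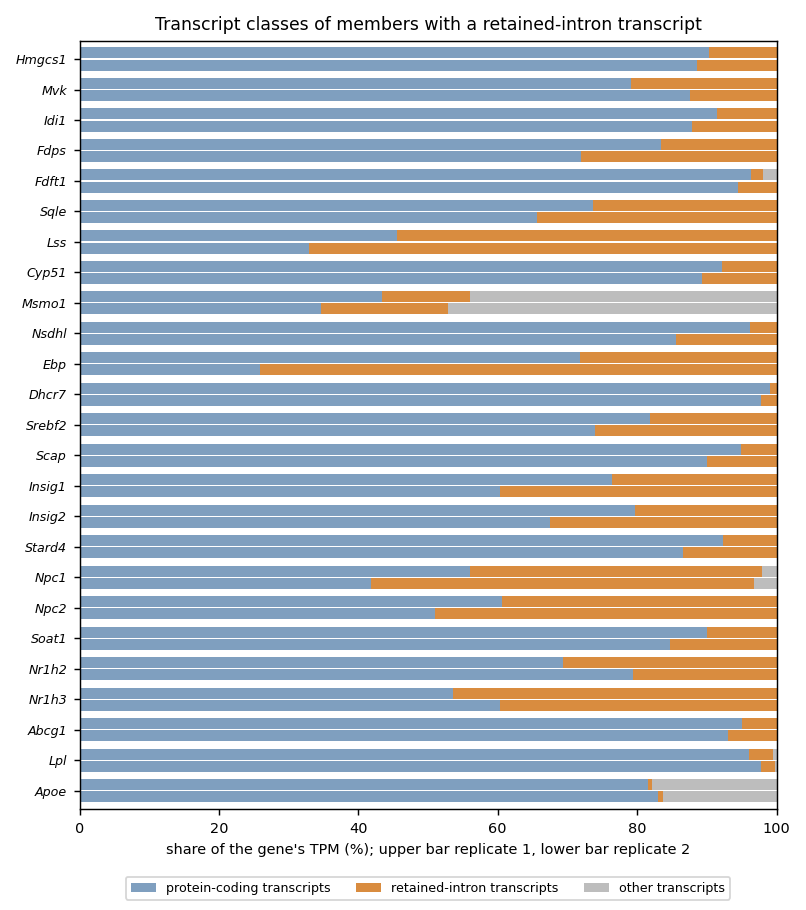
Share of each gene's TPM in protein-coding, retained-intron and other transcripts, for the 25 members with a retained-intron transcript, with replicate 1 as the upper and replicate 2 as the lower bar. Lss, Ebp, Npc1, Npc2 and Nr1h3 carry the longest retained-intron bars, while those of Apoe, Lpl and Abcg1 reach at most 6.93%.

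Some of these levels may include reads of other genes. No source used here gives the strand setting of the counting, and exons of 9 members overlap a gene on the opposite strand, which reached 1 TPM for 5 of them. Fdft1 overlaps Ctsb, a lysosomal protease at 1448 and 1655 TPM, and Cyp51 overlaps Akap9, so both levels are uncertain, as are those of Hmgcs1, Srebf1 and Npc1. The counts of Acat2, Hmgcs1, Idi1, Fdft1, Cyp51, Scap and Npc1 were not whole within 0.005, so some of their reads were shared with another entry.

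Genes of the same pathways outside the 34 are given here from fixed lists. Of 9 other sterol enzymes, 8 reached 1 TPM, led by the esterases Lipa, the lysosomal acid lipase, with 109 and 180 TPM, and Nceh1, with 49.1 and 76.5 TPM, while Cyp7b1 was at 0. All 8 SREBP processing partners reached 1 TPM, with a median of 14.2 TPM, and by mean level Syvn1, a ubiquitin ligase, was highest with 21.9 and 17.3 TPM. Mbtps2 and Mbtps1, the proteases that release SREBP, had 19.8 and 19.4 TPM in replicate 2 and exceeded Syvn1 there, and Tmem97 was lowest by mean with 6.21 and 10.1 TPM. All 9 fatty acid targets of SREBP reached it, with a median of 5.78 TPM, led by the desaturases Scd2 with 62.9 and 125 TPM and Fads1 with 19.6 and 30.6 TPM, while Scd1 was lowest with 0.77 and 1.97 TPM. Of 11 other LXR targets and partners, 10 reached 1 TPM, and the highest by mean level were the phospholipid transfer protein Pltp with 157 and 122 TPM and the lipid droplet protein Plin2 with 96.8 and 95.9 TPM. The corepressor Ncor1, with 72.5 and 117 TPM, exceeded Plin2 in replicate 2, and Apoc1 was lowest with 0.61 and 0 TPM. Of 7 lipoprotein uptake receptors, 4 reached it, led by Lrp1 with 255 and 292 TPM and the scavenger receptor Msr1 with 118 and 125 TPM, while Vldlr had 0.02 and 0 TPM.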

How the data were processed

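Members and gene lists were chosen with earlier results of these data known. Per library, the authors deposited expected counts (estimated reads, not normalised) per gene and per transcript, and TPM, which divides them by effective length and scales each library to 1 sum, per the file headers and the values. A further deposited transcript table has estimated counts and TPM made in another way, per the file headers. The tables use mm10 with GENCODE M21, per the labels and deposited text files. Aligner, quantifiers and strand handling were recorded as not given in the sources used here. Entries with numeric identifiers (26248, with 0.000109% and 0.000303% of counts) and 97 spike-in entries (0.581% and 0.434%) stayed out of library sizes.

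Levels are TPM per library or the mean and SD of both. Medians used log2(mean TPM + 1). Differences used a pseudocount of 1, were centred on the median gene at a mean of 1 TPM or more, understate the fold of low genes, and were tested on simulated data. With 1 group no test between groups of samples was possible. A chi-square of rounded counts, 91.2 per degree of freedom over 14354 degrees, served only to check that the tables are not 1 library deposited again. Counting intervals are at 95% (exact for counts and CPM ratios, Wilson for shares), the limit for a count of 0 was 3 counts, and all cover counting error only. All 34 members were named. The results of 1 marker list and 1 other listed gene are not reported here. Other pathway lists were given by counts with up to 2 of their highest genes and the lowest by mean TPM (Mbtps1, Mbtps2, Ncor1 and transcript Srebf1-204 were added after their values were seen), and transcripts were eligible at 1 TPM or more in both libraries; those shown, and the retained-intron shares shown, were picked after their values were seen. Alternatives were pseudocounts of 0.1 and 5, no centring, no filter, at least 10 counts, the other table, CPM, TPM rescaled over nuclear protein-coding genes, other list borders, TMM from edgeR 4.0.16 and size factors from DESeq2 1.42.0 on rounded counts in R 4.3.3, and each replicate left out. The rest was done in Python 3.11.15 (scipy 1.17.1, pandas 2.3.3, numpy 2.4.6, matplotlib 3.10.9).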

Additional observations from a re-analysis of the deposited data

How the results depend on the processing

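The order of synthesis genes below LXR targets kept its direction under all alternatives run. The difference of -4.01 was -3.40 with a pseudocount of 5, -5.01 as CPM, -3.05 with Nr1h3 and Srebf1 in the LXR list, and -4.15 to -3.62 with a replicate left out. The count of 2 members over 2-fold between libraries was 1 with a pseudocount of 5, with no filter, with at least 10 counts in each library, with the other transcript table and with centring on protein-coding genes, an alternative chosen after seeing the data. In each of these Nr1h3 remained and Apoe did not. With no centring the count was 2, Nr1h3 and Idi1. The retained-intron share of 15.4% was 23.6% in the other table, 5.84% as a share of expected counts, also chosen after seeing the data, and 12.6% to 15.3% with a replicate left out; it therefore depended on the quantification. The 33 members at 1 TPM or more were 31 in the other table, where Mvk and Hsd17b7 were also below it, and 34 with TPM rescaled over nuclear protein-coding genes. Depth limits Ch25h above all, with 27 and 6 counts. The 2 libraries of 1 group, with no unstimulated cells, limit the comparisons. No paired analysis was possible because there was 1 group.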
